A study of Mus musculus with 20 samples.

Results

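The 35 genes described here carry sugar into macrophages and burn it: sugar transporters, the enzymes of glycolysis, the lactate and monocarboxylate steps at its end, 2 pyruvate dehydrogenase kinases, ketohexokinase, fructose bisphosphatase and 4 enzymes of the pentose phosphate pathway. They were taken by symbol from the 24421 genes of the count tables, and all 35 were listed for all 20 libraries. Earlier results of these data were known when the list was made. Total RNA of C57BL/6JRj mice was sequenced in 5 macrophage populations with 4 libraries each: peritoneal macrophages, microglia, macrophages of the choroid plexus, and macrophages of the dura split by MHC class II into a high and a low population. The low population of the dura is titled "int", although its cell type reads "lo". The labels give no treatment, genotype beyond the strain, age or sex, and do not say whether the libraries of a population come from separate animals, so p-values measure the spread between these libraries, which may be technical.

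Glycolysis turns glucose into pyruvate in the cytosol, and several of its steps can be run by more than 1 isozyme, each with its own kinetics and regulation. Pyruvate is then reduced to lactate by lactate dehydrogenase and exported, or is carried into mitochondria, where the pyruvate dehydrogenase complex turns it into acetyl-CoA and pyruvate dehydrogenase kinases switch that complex off. The pentose phosphate pathway branches off after hexokinase and supplies NADPH and ribose, and macrophages are known to raise glucose use when activated. Microglia are known for a fructose transporter, Slc2a5, that other macrophages mostly lack.

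A level is given in CPM, the count a gene would have in a library of 1e+06 gene counts after TMM scaling, and always in order of replicate number (1, 3, 4 and 5 in microglia, 1 to 4 elsewhere). Levels of different genes are set side by side only per kilobase of exon. A log2 fold change is positive where the population named first is higher, and the value after ± is its standard error. Means are given ± SD with n = 4. A gene is called where edgeR's adjusted p, taken over all 13960 genes tested, is under 0.05 and the change is at least 2-fold. In bulk RNA, fewer cells of a type and less RNA per cell cannot be told apart. Gene counts per library were 13383274 to 32611875, which puts a floor of 3 counts at 0.0964 to 0.222 CPM.

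Each population carried the markers of its label. The 8 macrophage core genes summed to 8220 to 20900 CPM in each library, the 8 microglia genes to 31500 to 42000 CPM in microglia against 375 to 7690 elsewhere, and the 7 large peritoneal macrophage genes to 21400 to 24700 CPM in peritoneal libraries against at most 17.2 elsewhere. The 8 border macrophage genes summed to 4900 to 16300 CPM in dura and choroid plexus, 1160 to 2460 in peritoneal libraries and 216 to 438 in microglia. Monocyte genes summed to 3720 to 4700 CPM in dura and at most 607 elsewhere. Most of the dura sum was F13a1, also on the border macrophage list, with means of 2900 CPM in MHC II-high and 4230 in MHC II-low dura. Ccr2 was at 1130 and 106 CPM there. Ly6c2, Plac8, Chil3 and Vcan were at 0.0189 to 7.56 in dura and higher in peritoneal macrophages (1.83 to 19.3). Fibroblast genes summed to 315 to 1080 CPM in choroid plexus, 140 to 334 in dura, 18.2 to 141 in microglia and at most 1.75 in peritoneal libraries. The 8 astrocyte markers summed to 114 to 150 CPM in microglia, 119 in MHC II-high dura replicate 4 and 17.2 to 42.7 in the other libraries, with 3 of the 8 above 1 CPM in microglia. Most of that microglia sum was Slc1a3, with a mean of 123 CPM. The 6 mesothelium markers summed to 91.7 to 108 CPM in microglia, where 4 of the 6 had no counts, and to at most 6.14 elsewhere. Nearly all of it in microglia was Upk1b, with a mean of 98.9 CPM. The part of either list in the microglia results was not tested. Skeletal muscle markers stayed at or below 1.66 CPM in sum and T and NK cell markers at or below 1.41. Microglia replicate 3 stands apart. The 12 choroid plexus epithelium genes, such as the thyroxine carrier Ttr, summed to 20500 CPM there, against 68.3, 721 and 336 in the other microglia libraries, 4020 to 7590 in choroid plexus, 12.9 to 41.1 in dura and 0.583 to 1.2 in peritoneal libraries. Results on microglia are therefore given with that library and, where it matters, without it.

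Sugar-use genes were most abundant in peritoneal macrophages. The 35 members together summed to 7620 to 8739 CPM in peritoneal libraries, 4964 to 5919 in microglia, 3559 to 3890 in choroid plexus, 3072 to 3666 in MHC II-high dura and 2831 to 3125 in MHC II-low dura. Of the 35, 20 had their highest mean in peritoneal macrophages, 9 in microglia, 4 in choroid plexus and 2 in MHC II-low dura. A difference among the 5 populations, at any size, passed edgeR's test for 34 members, all but the aldolase gene Aldoc (adjusted p = 0.18), where 81.4% of all genes tested passed.

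**Figure D1:**
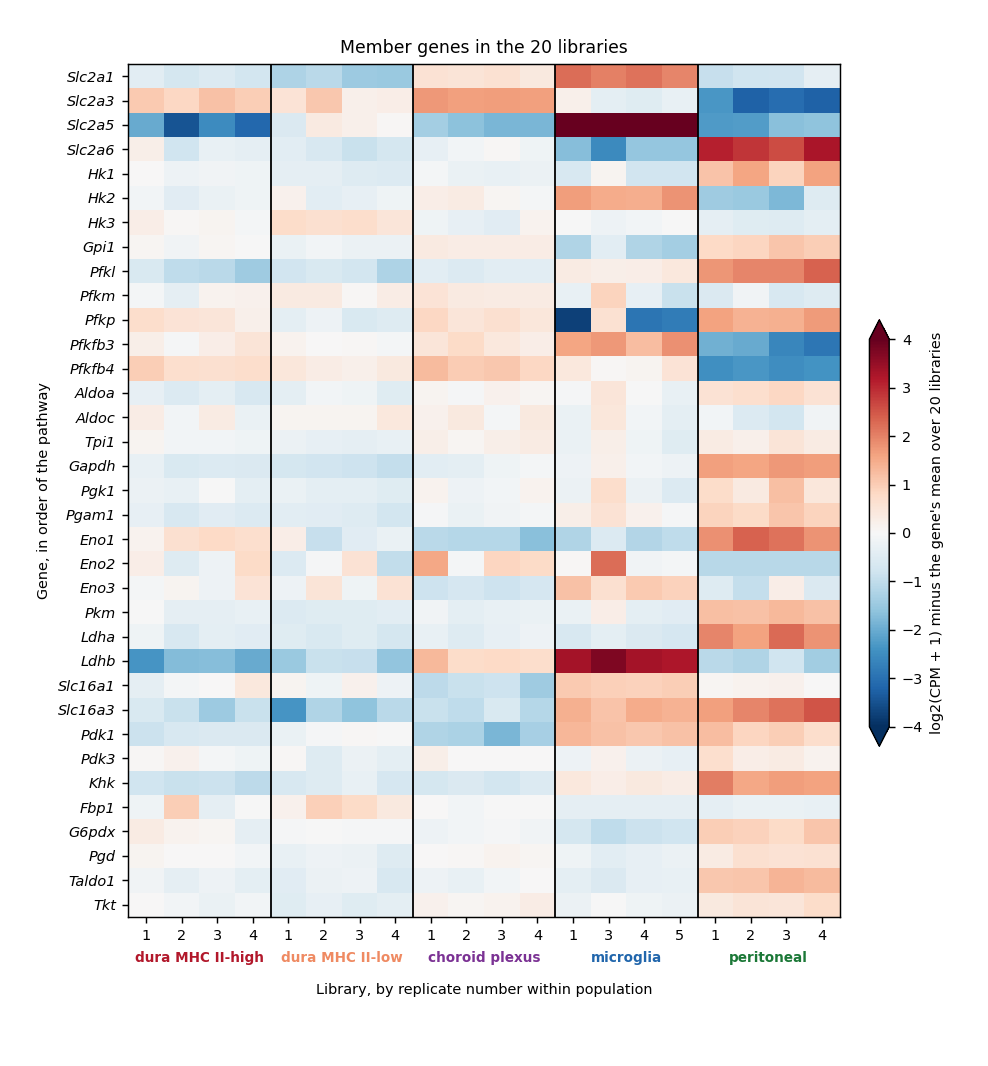
Member genes (rows, in pathway order) in the 20 libraries (columns, grouped by population); colour shows log2(CPM + 1) minus the gene's mean over 20 libraries and is cut at 4 in both directions. Slc2a5 and Ldhb are red in microglia, Slc2a6, Pfkl, Gapdh and Ldha are red in peritoneal macrophages, and Pfkp in microglia replicate 3 differs from the other microglia libraries.

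Peritoneal macrophages differed in sugar-use genes from the 4 brain populations. Against MHC II-high dura, 14 members were called higher and 6 lower, beside 9.18% and 20.1% of all genes, and their median log2 fold change was 0.90 (all genes -0.10). Against MHC II-low dura, 15 were higher and 8 lower, beside 11.9% and 20%, with a median of 0.95 (all genes -0.11). Against choroid plexus the counts were 14 and 7, beside 12.6% and 24.1%, with a median of 0.60 (all genes -0.13). Against microglia they were 12 and 9, beside 18.9% and 25.7%, with a median of 0.67 (all genes -0.11). The share of members called higher is above the share of all genes in each of these comparisons, which share the peritoneal libraries, while the share called lower lies near it. The lower counts include Eno2 and Slc2a3 in each comparison and Fbp1 against both dura populations. The differences of these genes are given below as a description only. The higher count against MHC II-high dura includes Slc2a5, which had few or no reads in MHC II-high dura.

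Against each other brain population, more members were called higher in microglia than lower. Called higher and lower in MHC II-high dura than in microglia were 5 and 9 members, beside 15.7% and 12.2% of all genes, with a median of -0.004 (all genes 0.015). For MHC II-low dura they were 2 and 9, beside 13.8% and 12.7%, with a median of -0.26 (all genes 0.02). For choroid plexus they were 5 and 10, beside 12.1% and 7.11%, with a median of -0.01 (all genes 0.09). Without microglia replicate 3 these counts were 6 and 11, 3 and 9, and 5 and 10. The share of all genes called in that fit was not taken, so the change in these counts has no background beside it.

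Fewer members were called between the dura and choroid plexus populations. Choroid plexus held 3 members lower and 3 higher than MHC II-high dura, beside 4% and 5.87% of all genes, with a median of -0.23 (all genes -0.01) for MHC II-high dura against choroid plexus. For MHC II-low dura, 5 members were called higher and 2 lower than in choroid plexus, beside 4.18% and 8.63%, with a median of -0.36 (all genes -0.01). Between the dura populations 1 member, Slc2a5, was called lower in MHC II-high cells, beside 1.48%, and 0 higher, beside 2.39%, with a median of 0.18 (all genes 0.02). Slc2a5 had few or no reads in MHC II-high dura, so this call is a description. By edgeR, 7 members were higher and 5 lower in MHC II-high dura at an unadjusted p under 0.05. The share of all genes at that level was not taken. DESeq2 called 0 higher and 1 lower.

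With no fold limit, members higher and lower numbered 5 and 5 (all genes 5.77% and 5.19%) in MHC II-high against MHC II-low dura, 4 and 7 (all genes 13.3% and 12.9%) in MHC II-high dura against choroid plexus and 6 and 10 (all genes 13.3% and 15.8%) in MHC II-low dura against choroid plexus. Against microglia they numbered 8 and 14 (all genes 29.4% and 24.1%) in MHC II-high dura, 6 and 16 (all genes 27.7% and 23.4%) in MHC II-low dura and 10 and 12 (all genes 24.6% and 17.8%) in choroid plexus. In peritoneal macrophages they numbered 22 and 7 (all genes 22.8% and 31.5%) against MHC II-high dura, 22 and 10 (all genes 25% and 32.6%) against MHC II-low dura, 19 and 10 (all genes 27% and 35.8%) against choroid plexus and 20 and 11 (all genes 31.7% and 37.5%) against microglia. Counted in either direction at 2-fold, the share of all genes ran from 3.88% between the dura populations over 9.88% and 12.8% for MHC II-high and MHC II-low dura against choroid plexus to 27.9%, 26.5% and 19.2% for MHC II-high dura, MHC II-low dura and choroid plexus against microglia. For peritoneal macrophages it was 29.2% and 31.9% against MHC II-high and MHC II-low dura, 36.7% against choroid plexus and 44.6% against microglia.

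**Figure D2:**
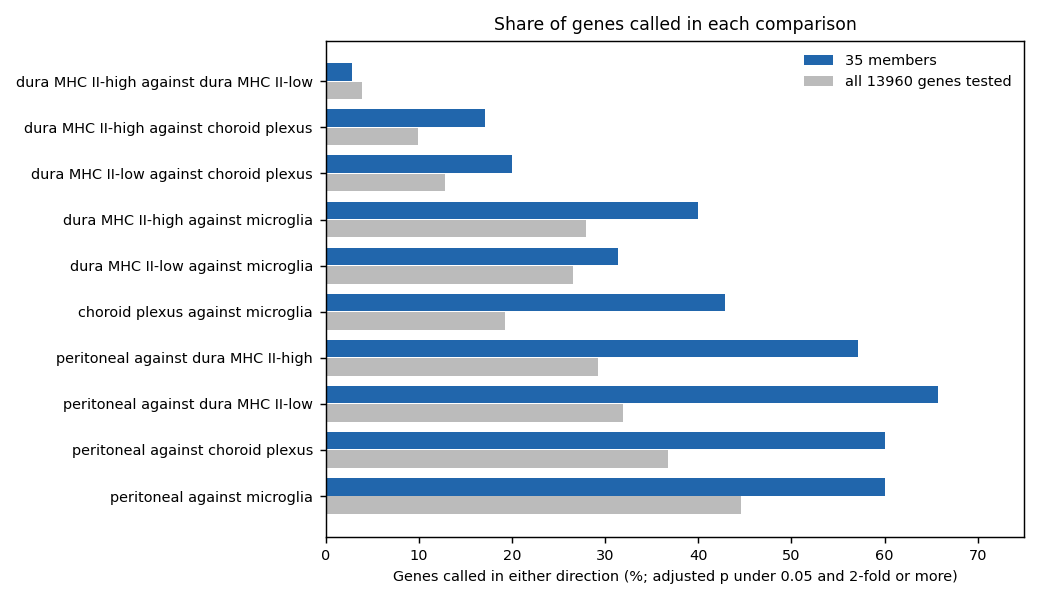
Percent of genes called in either direction (x axis) in each of the 10 comparisons (y axis), for the 35 members (blue) and for all 13960 genes tested (grey). Members reach 65.7% in peritoneal against MHC II-low dura, where all genes reach 31.9%, and 2.86% between the dura populations, where all genes reach 3.88%.

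The sugar transporters differed in which population held most of them. Slc2a1 (GLUT1), the basal glucose transporter, lies at chr4:119108711-119137983, plus strand (mm10, GENCODE M21). Slc2a1 stood at 24.6, 20.3, 22.5 and 19.8 CPM in MHC II-high dura and at 13.5, 15.1, 11.6 and 11.2 in MHC II-low dura. For Slc2a1, the choroid plexus libraries held 50.6, 48.1, 50.9 and 44, microglia 159, 138, 155 and 133 and peritoneal macrophages 17.2, 18.8, 19 and 25.6. Every microglia library lay above every other library, and choroid plexus lay above dura and peritoneal macrophages. Slc2a1 was called lower than in microglia in MHC II-high dura (-2.74 ± 0.13), MHC II-low dura (-3.51 ± 0.13), choroid plexus (-1.59 ± 0.12) and peritoneal macrophages (-2.86 ± 0.13), with edgeR's adjusted p at 2.02e-14 to 1.97e-09. It was also called lower than in choroid plexus in MHC II-high dura (-1.15 ± 0.12), MHC II-low dura (-1.91 ± 0.13) and peritoneal macrophages (-1.26 ± 0.12). The 8 endothelial markers summed to 96.7 to 137 CPM in microglia, 69.6 to 94.2 in choroid plexus, 5.11 to 37.2 in dura and 0.931 to 2.49 in peritoneal libraries. All 8 were above 1 CPM in microglia, and 4 of 8 had no counts in peritoneal macrophages. Over the brain populations this list and Slc2a1 ranked alike, from microglia over choroid plexus and MHC II-high dura to MHC II-low dura. Peritoneal libraries had less of the list than MHC II-low dura (5.11 to 10.5 CPM) but more Slc2a1. By mean, Kdr (18 and 25.7 CPM) and Emcn (4.31 and 24.2) were lower in microglia than in choroid plexus, and the other markers of the list higher. Their part in the Slc2a1 difference was not tested.

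The fructose transporter Slc2a5 (GLUT5, chr4:150119283-150144169, plus strand) was highest in microglia. Slc2a5 read 1.73, 0, 0.913 and 0.236 CPM in MHC II-high dura, 6.32, 13, 11.7 and 10.4 in MHC II-low dura and 3.25, 2.51, 2.1 and 2.1 in choroid plexus. Microglia had Slc2a5 at 1059, 807, 950.1 and 869 CPM and peritoneal macrophages at 1.28, 1.31, 2.41 and 2.57. Every microglia library lay above every other library, and MHC II-low dura lay above MHC II-high dura, choroid plexus and peritoneal macrophages. Against microglia, its log2 fold change was -10.23 ± 0.56 in MHC II-high dura, -6.47 ± 0.46 in MHC II-low dura, -8.54 ± 0.52 in choroid plexus and -8.93 ± 0.52 in peritoneal macrophages. For MHC II-low dura, choroid plexus and peritoneal macrophages edgeR's adjusted p was at or below 2.65e-09. Between the dura populations the change was -3.75 ± 0.48. MHC II-high dura held 80 Slc2a5 counts in all, and the gene passed the filter on low counts through the other populations. Its differences from MHC II-high dura are therefore a description, also where a call is counted. The counts of called members above include Slc2a5 as lower in MHC II-high dura than in each of the other 4 populations. MHC II-low dura was also called above choroid plexus (2.06 ± 0.44) and peritoneal macrophages (-2.46 ± 0.43 for peritoneal against MHC II-low dura). MHC II-high replicate 1 held more reads than the other 3 of its population, and without it MHC II-high dura differed by -4.73 from MHC II-low dura, -2.67 from choroid plexus and -11.27 from microglia, and peritoneal macrophages by 2.31 from MHC II-high dura. Other Slc2a5 calls did not hold in every fit: MHC II-high dura against choroid plexus (-1.69 ± 0.55, adjusted p = 0.0302) lost its call when replicate 4 of MHC II-high dura, or replicate 1 or 2 of choroid plexus, was left out (adjusted p 0.0563 to 0.0804) or when only the 2 populations were fitted (0.118). Likewise peritoneal against MHC II-high dura (1.30 ± 0.53, adjusted p = 0.0467) lost it without any 1 of 9 libraries (adjusted p 0.0507 to 0.126) and in the fit of the 2 populations (0.194).

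Slc2a6 (GLUT6, chr2:27021363-27027998, minus strand), a transporter of intracellular membranes, was highest in peritoneal macrophages. Peritoneal macrophages held Slc2a6 at 199, 168, 139.5 and 221 CPM and microglia at 6.08, 3.02, 6.95 and 7. Levels of Slc2a6 were 17.4, 20.5, 22.8 and 19.4 CPM in choroid plexus, 16.3, 13.8, 11.7 and 13.2 in MHC II-low dura and 26.7, 12.5, 18.1 and 16.9 in MHC II-high dura. Peritoneal libraries lay far above the rest and microglia below the rest. The log2 fold change of peritoneal macrophages was 3.29 ± 0.23 against MHC II-high dura, 3.73 ± 0.24 against MHC II-low dura, 3.18 ± 0.23 against choroid plexus and 4.98 ± 0.26 against microglia, with edgeR's adjusted p at 1.7e-12 to 5.98e-10. Over microglia, Slc2a6 was also called higher in MHC II-high dura (1.69 ± 0.24), choroid plexus (1.80 ± 0.24) and MHC II-low dura (1.25 ± 0.24), the last falling to 0.97 and out of the 2-fold limit without microglia replicate 3.

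Slc2a3 (GLUT3), a glucose transporter of high affinity, went the other way. In microglia Slc2a3 came to 9.78, 6.24, 5.79 and 6.67 CPM, and in peritoneal macrophages to 0.864, 0, 0.138 and 0. The other Slc2a3 values were 18.7, 16, 20.1 and 17.6 CPM in MHC II-high dura, 12.9, 19.1, 9.95 and 10.4 in MHC II-low dura and 30.6, 28.7, 28.9 and 28.8 in choroid plexus. It was nearly without reads in peritoneal macrophages, where 2 of 4 libraries had none. For Slc2a3 the peritoneal log2 fold change was -6.08 ± 0.59 against MHC II-high dura, -5.62 ± 0.58 against MHC II-low dura, -6.77 ± 0.60 against choroid plexus and -4.74 ± 0.58 against microglia. The peritoneal libraries held 29 Slc2a3 counts in all, most of them in replicate 1, and without that library these values were -8.35, -7.88, -9.04 and -7.00. Slc2a3 passed the filter on low counts only through the other populations. With so few peritoneal reads, the sizes of these changes are uncertain, and they are a description with no test. The counts of called members above include Slc2a3 as lower in peritoneal macrophages than in each of the other 4 populations. Choroid plexus (2.04 ± 0.45) and MHC II-high dura (1.35 ± 0.44) were called above microglia, the latter not without microglia replicate 4 (adjusted p = 0.0523). The value for MHC II-low dura against choroid plexus, -1.16 ± 0.43 (adjusted p = 0.0524), did not pass the test and passed it without any 1 of 5 libraries.

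Per kilobase, the leading transporter of the 4 was Slc2a5 in microglia, with 85.9% ± 0.575 (SD) of the summed level, and Slc2a6 in peritoneal macrophages, with 89.8% ± 1.8. In choroid plexus Slc2a1 led with 55.6% ± 1.5. In MHC II-high dura Slc2a1 (42.9% ± 4.34) and Slc2a6 (38.6% ± 5.09) were within their spread, and Slc2a6 leads there if the length of the longest coding transcript is used. In MHC II-low dura Slc2a6 (33.7% ± 5.21), Slc2a1 (28.6% ± 1.46) and Slc2a5 (23.8% ± 6.25) shared the step. Slc2a8, a family gene outside the 35, stood at 55.4 ± 5.32 CPM in MHC II-high dura, 77 ± 8.7 in MHC II-low dura, 75.5 ± 4.45 in choroid plexus, 97.6 ± 9.09 in microglia and 46.1 ± 3.22 in peritoneal macrophages, and leads per kilobase in both dura populations and choroid plexus once the whole family is counted.

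The promoters of the microglial and the peritoneal transporter are shown to set their sequence beside their opposite pattern. Both cover 300 bases, most of them before the start of transcription, from RefSeq on GRCm38.p6, at chr4:150119094-150119393, plus strand for Slc2a5 and chr2:27027949-27028248, minus strand for Slc2a6. Capitals mark ACGTG or GCGTG on either strand, the core of the element bound by the hypoxia-inducible factors. Slc2a5 has 0 and Slc2a6 has 4 such matches in these 300 bases. The other members called higher in microglia than in each other population (Slc2a1, Hk2, Pfkfb3 and Ldhb) have 1 to 4 matches per listed start. Members called higher in peritoneal macrophages than in each other population have 0 to 7.
Slc2a5: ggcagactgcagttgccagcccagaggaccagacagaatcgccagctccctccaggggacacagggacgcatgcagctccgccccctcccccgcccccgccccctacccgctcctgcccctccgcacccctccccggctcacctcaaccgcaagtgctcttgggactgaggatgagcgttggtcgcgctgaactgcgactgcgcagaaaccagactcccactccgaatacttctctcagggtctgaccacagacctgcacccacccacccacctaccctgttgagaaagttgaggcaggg
Slc2a6: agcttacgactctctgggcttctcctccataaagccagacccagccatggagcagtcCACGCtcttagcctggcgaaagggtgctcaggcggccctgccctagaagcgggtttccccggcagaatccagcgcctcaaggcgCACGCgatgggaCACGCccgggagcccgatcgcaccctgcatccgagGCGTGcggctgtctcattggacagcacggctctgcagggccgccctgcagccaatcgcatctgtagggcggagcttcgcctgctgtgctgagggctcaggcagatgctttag
A match describes letters, not a bound site, and binding was not measured here.

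Hexokinase traps glucose in the cell by phosphorylation. Its isozymes Hk1 and Hk2 can bind mitochondria, and Hk3 is the isozyme of myeloid cells. Hk1 stood at 87.9, 75.6, 78.9 and 77.4 CPM in MHC II-high dura and at 66.8, 67.8, 60.2 and 59.3 in MHC II-low dura. For Hk1, the choroid plexus libraries held 82.3, 71.8, 69.9 and 74, microglia 55.4, 93.8, 50.5 and 51 and peritoneal macrophages 193, 263, 161 and 268. Peritoneal libraries lay above all others. Peritoneal Hk1 exceeded the level in MHC II-high dura by 1.47 ± 0.18, in MHC II-low dura by 1.80 ± 0.18, in choroid plexus by 1.57 ± 0.18 and in microglia by 1.82 ± 0.18 (log2), with edgeR's adjusted p at 1.77e-08 to 6.05e-07. Among the brain populations Hk1 was not called, and microglia replicate 3 is the one high microglia library.

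Hk2 read 62.8, 49.9, 56.1 and 59.6 CPM in MHC II-high dura, 76.8, 50.5, 54 and 60.8 in MHC II-low dura and 82.8, 85.5, 72.3 and 64.3 in choroid plexus. Microglia had Hk2 at 217, 192, 188 and 236 CPM and peritoneal macrophages at 24.5, 23.6, 18.8 and 46.9. Microglia lay above and peritoneal macrophages below all other populations. Hk2 was called lower than in microglia in MHC II-high dura (-1.87 ± 0.21), MHC II-low dura (-1.78 ± 0.21), choroid plexus (-1.45 ± 0.21) and peritoneal macrophages (-2.87 ± 0.22), with edgeR's adjusted p at 5.37e-10 to 1.1e-05. Peritoneal macrophages were also called lower than choroid plexus (-1.42 ± 0.21), MHC II-low dura (-1.09 ± 0.21) and MHC II-high dura (-1.01 ± 0.21). The last lies at the 2-fold limit and fell short of it without any 1 of 14 libraries (-0.98 to -0.85), and the MHC II-low call without MHC II-low replicate 1 or peritoneal replicate 3 (-0.955 and -0.935).

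Peritoneal macrophages held Hk3 at 112, 102, 100.2 and 111 CPM and microglia at 142, 126, 134 and 142. Levels of Hk3 were 128, 115, 106 and 158 CPM in choroid plexus, 242, 228, 235 and 203 in MHC II-low dura and 175, 150.3, 154 and 135 in MHC II-high dura. MHC II-low dura lay above all other populations, by less than 2-fold over the brain populations. The peritoneal level was called lower than the MHC II-low one (-1.09 ± 0.11, edgeR's adjusted p = 4.05e-08), and the other differences did not reach 2-fold. Per kilobase Hk3 led in each population, with 68.7% ± 2 (SD) of the 3 hexokinases in MHC II-high dura, 77.8% ± 1.92 in MHC II-low dura and 61.3% ± 5.14 in choroid plexus. In microglia Hk3 (46.6% ± 2.15) shared the step with Hk2 (44% ± 2.39), and in peritoneal macrophages Hk3 (49.1% ± 6.05) with Hk1 (43.1% ± 5.09), in both cases within the spread. Hk1 leads in peritoneal macrophages by the length of the longest transcript or of the longest coding transcript.

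The next steps isomerise glucose 6-phosphate (Gpi1) and commit it to glycolysis (phosphofructokinase). In microglia Gpi1 came to 87.6, 149.7, 85.7 and 77.2 CPM, and in peritoneal macrophages to 352, 362, 429.8 and 400. The other Gpi1 values were 211, 184, 214 and 197 CPM in MHC II-high dura, 168, 186, 169 and 170.1 in MHC II-low dura and 260.5, 247, 248 and 249.6 in choroid plexus. Peritoneal libraries lay above all others and microglia below. Gpi1 was called higher in peritoneal macrophages than in microglia (1.95 ± 0.15) and MHC II-low dura (1.15 ± 0.15), and higher in choroid plexus than in microglia (1.33 ± 0.15), with edgeR's adjusted p at 4.22e-10 to 1.1e-06. MHC II-high dura against microglia (1.01 ± 0.15) lies at the 2-fold limit and fell under it without any 1 of 10 libraries (0.845 to 0.958). Peritoneal against MHC II-high dura (0.94 ± 0.14) reached it without MHC II-high replicate 3 (1.00). Other genes, led by Gm1840, hold 25.3% of the 50-base stretches of the longest coding Gpi1 transcript. How reads that match several genes were treated is not given in the sources used here, so its level is uncertain, as is that of each gene below for which such a share is given.

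Pfkl, the liver-type phosphofructokinase (chr10:77986947-78010083, minus strand), was the main isozyme. Pfkl stood at 69.5, 51.5, 49.5 and 38.7 CPM in MHC II-high dura and at 62, 69.4, 62.4 and 44.2 in MHC II-low dura. For Pfkl, the choroid plexus libraries held 79.1, 72.7, 77.7 and 78, microglia 132, 125, 126 and 143 and peritoneal macrophages 361, 407, 408 and 549.5. Peritoneal macrophages came first, then microglia, choroid plexus and both dura populations, and the dura populations overlapped. Peritoneal log2 fold changes of Pfkl were 3.04 ± 0.17 against MHC II-high dura, 2.86 ± 0.17 against MHC II-low dura, 2.49 ± 0.16 against choroid plexus and 1.72 ± 0.16 against microglia, with edgeR's adjusted p at 4.99e-12 to 7.71e-09. MHC II-high dura (-1.33 ± 0.16) and MHC II-low dura (-1.14 ± 0.16) were called lower than microglia.

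Pfkp read 61.4, 54.6, 52 and 43 CPM in MHC II-high dura, 28.1, 32.1, 23.9 and 25.6 in MHC II-low dura and 66.1, 52, 58.8 and 51.5 in choroid plexus. Microglia had Pfkp at 1.88, 57, 4.05 and 4.49 CPM and peritoneal macrophages at 115, 99.4, 101 and 122. Pfkp, the platelet-type isozyme, had the highest ratio of microglia replicate 3 to the other microglia libraries: 57 CPM there against 1.88 to 4.49 in the other 3 microglia libraries. With all 4, choroid plexus against microglia was called (1.76 ± 0.68, edgeR's adjusted p = 0.0481), a call lost without any 1 of the 19 other libraries (adjusted p 0.0561 to 0.128). Without replicate 3, Pfkp was called above microglia in MHC II-high dura (3.86), MHC II-low dura (2.91), choroid plexus (3.97) and peritoneal macrophages (4.94), with adjusted p at 7.98e-14 to 3.94e-10. The peritoneal change against microglia with all 4 was 2.70 ± 0.70 and against MHC II-low dura 2.00 ± 0.67 (adjusted p = 0.0181). When only the 2 populations were fitted, neither choroid plexus (adjusted p = 0.234) nor peritoneal macrophages (0.0578) passed against microglia. Without replicate 3, 2 more differences passed the test: MHC II-low dura below choroid plexus (-1.06, adjusted p = 4.21e-05) and peritoneal above MHC II-high dura (1.08, adjusted p = 7.46e-06). The neighbouring gene Pitrm1 holds 17.1% of the 50-base stretches of Pfkp.

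Pfkm, the muscle-type isozyme, was at 11 ± 1.94 CPM in MHC II-high dura, 13.7 ± 1.44 in MHC II-low dura, 14.8 ± 1.21 in choroid plexus, 11.1 ± 6.95 in microglia and 7.86 ± 1.49 in peritoneal macrophages, and was called in none of the 10 comparisons with all libraries in the fit, although peritoneal against choroid plexus (-0.92 ± 0.28) passed without peritoneal replicate 2 (-1.06). Skeletal muscle markers were at or near 0 in all populations. Per kilobase Pfkl led in each population, with 51.5% ± 5.26 (SD) of the 3 isozymes in MHC II-high dura, 58.9% ± 4.89 in MHC II-low dura, 57% ± 1.93 in choroid plexus, 82.4% ± 12.6 in microglia and 85.8% ± 1.85 in peritoneal macrophages. In microglia the Pfkl share was 63.8% in replicate 3 and 88.6% ± 2.5 (SD, n = 3) in the others.

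Pfkfb3 and Pfkfb4 make and break fructose 2,6-bisphosphate, the activator of phosphofructokinase. Peritoneal macrophages held Pfkfb3 at 23.4, 21.8, 14.2 and 11.6 CPM and microglia at 276, 308, 218 and 327. Levels of Pfkfb3 were 129, 155, 124 and 109.7 CPM in choroid plexus, 100.3, 92, 94.1 and 87.6 in MHC II-low dura and 109, 89.4, 111 and 130.4 in MHC II-high dura. Microglia lay above and peritoneal macrophages below all other populations. Pfkfb3 was called lower than in microglia in MHC II-high dura (-1.36 ± 0.18), MHC II-low dura (-1.59 ± 0.18), choroid plexus (-1.12 ± 0.18) and peritoneal macrophages (-3.99 ± 0.20), with edgeR's adjusted p at 7.5e-13 to 4.08e-05. The peritoneal level was also lower than in MHC II-high dura (-2.63 ± 0.19), MHC II-low dura (-2.40 ± 0.19) and choroid plexus (-2.87 ± 0.19).

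In microglia Pfkfb4 came to 127, 97, 102 and 140.3 CPM, and in peritoneal macrophages to 16.6, 18.2, 16.2 and 17.2. The other Pfkfb4 values were 188, 153, 148 and 156 CPM in MHC II-high dura, 131, 116, 110 and 126 in MHC II-low dura and 228, 191, 203 and 168 in choroid plexus. Peritoneal macrophages lay below every other library, and the brain populations stayed within 2-fold of each other. Peritoneal log2 fold changes of Pfkfb4 were -3.24 ± 0.13 against MHC II-high dura, -2.82 ± 0.13 against MHC II-low dura, -3.54 ± 0.13 against choroid plexus and -2.77 ± 0.13 against microglia, with edgeR's adjusted p at 9.83e-15 to 2e-13. Peritoneal macrophages thus combined the most Pfkl with the least Pfkfb3 and Pfkfb4 of the 5 populations. Per kilobase Pfkfb4 led the pair in MHC II-high dura (69.5% ± 3.86, SD), MHC II-low dura (66.6% ± 1.89), choroid plexus (70.3% ± 3.27) and peritoneal macrophages (60.6% ± 7.75), and Pfkfb3 in microglia (60.8% ± 4.31).

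**Figure D3:**
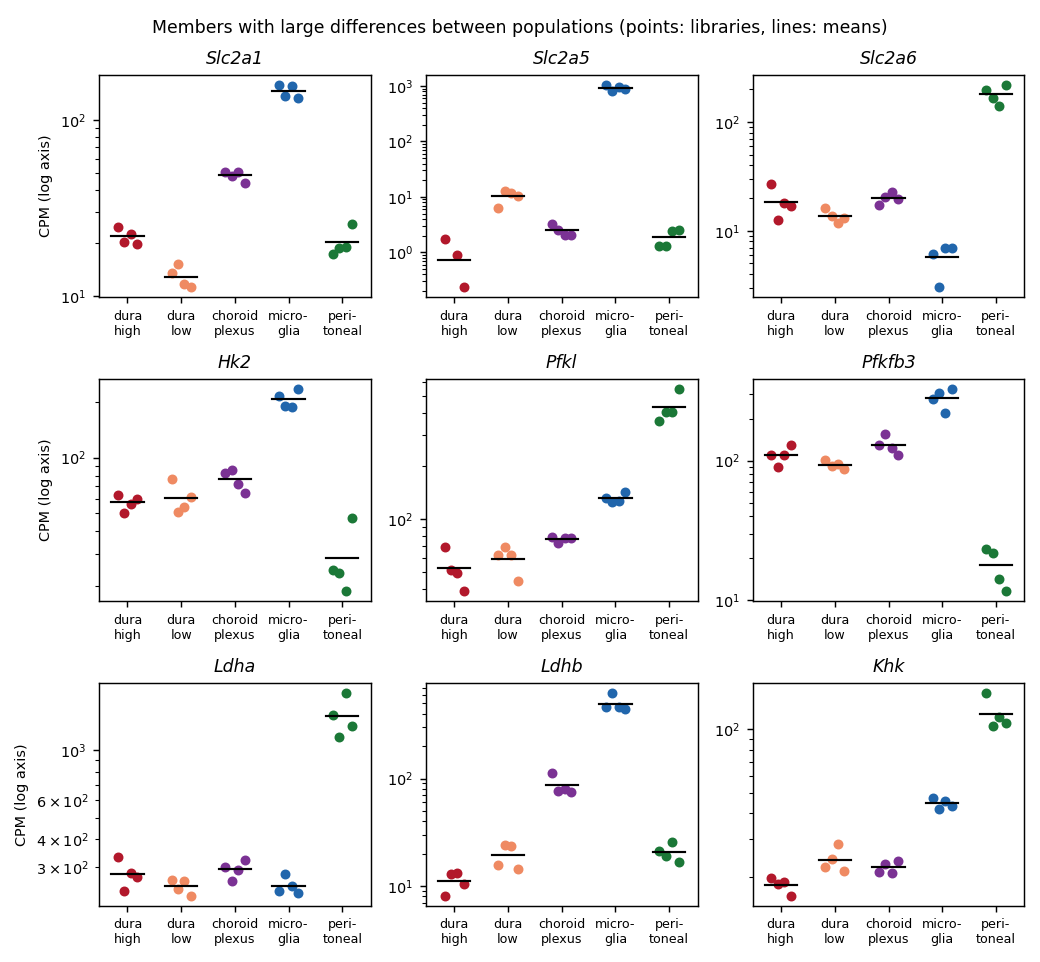
CPM (log axis) of 9 members in the 5 populations (x axis); points are libraries in order of replicate number and lines are means of 4, and the MHC II-high dura library without Slc2a5 reads is not drawn. Microglia are highest for Slc2a1, Slc2a5, Hk2, Pfkfb3 and Ldhb, peritoneal macrophages for Slc2a6, Pfkl, Ldha and Khk.

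Of the enzymes from aldolase to phosphoglycerate mutase, Aldoa, Gapdh, Pgk1 and Pgam1 were called higher in peritoneal macrophages in at least 1 comparison, and Aldoc and Tpi1 in none. Aldoa stood at 289, 245, 277 and 229 CPM in MHC II-high dura and at 275, 334, 321 and 256 in MHC II-low dura. For Aldoa, the choroid plexus libraries held 385, 348, 408 and 378, microglia 349, 499.7, 353 and 294 and peritoneal macrophages 542, 578, 635 and 542. No other library reached the peritoneal range. Aldoa, the main aldolase, was called higher in peritoneal macrophages than in MHC II-high dura (1.14 ± 0.13, edgeR's adjusted p = 4.01e-07). Against MHC II-low dura it was 0.95 ± 0.13 and passed 2-fold without MHC II-low replicate 2 or peritoneal replicate 4 (1.014 to 1.016). Aldoa made up at least 99.1% of the aldolase level per kilobase in each population. Aldoc stayed at 1.17 to 3.89 CPM in all 20 libraries, and Tpi1, triosephosphate isomerase, at 104 to 211 CPM, and neither was called in any comparison.

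Gapdh, glyceraldehyde 3-phosphate dehydrogenase, is often used as a constant reference gene. Gapdh read 276, 223, 231 and 226 CPM in MHC II-high dura, 208, 197, 192 and 176 in MHC II-low dura and 252, 259.6, 302 and 318 in choroid plexus. Microglia had Gapdh at 298, 393, 315 and 292 CPM and peritoneal macrophages at 1061, 1025, 1121 and 1087. Each peritoneal library lay far above all 16 others, of which microglia replicate 3 was the highest at 393 CPM. Peritoneal log2 fold changes of Gapdh were 2.17 ± 0.11 against MHC II-high dura, 2.47 ± 0.11 against MHC II-low dura, 1.92 ± 0.11 against choroid plexus and 1.73 ± 0.11 against microglia, with edgeR's adjusted p at 1.74e-13 to 1.57e-11. Among the brain populations Gapdh was not called. Gapdh has many processed copies: Gm7336 holds 82.5% of its 50-base stretches.

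Peritoneal macrophages held Pgk1 at 135, 102, 186 and 109 CPM and microglia at 68.3, 132, 68 and 54.9. Levels of Pgk1 were 89, 69.4, 74.6 and 88.1 CPM in choroid plexus, 66.4, 61.1, 61.2 and 56.8 in MHC II-low dura and 67.5, 65.4, 80.03 and 61.4 in MHC II-high dura. Peritoneal libraries lay above all but microglia replicate 3. Pgk1, phosphoglycerate kinase, was called higher in peritoneal macrophages than in MHC II-low dura (1.12 ± 0.22, edgeR's adjusted p = 0.000227), a call lost without peritoneal replicate 3 (0.91). It missed 2-fold against MHC II-high dura (0.96 ± 0.22) unless MHC II-high replicate 3 or peritoneal replicate 2 or 4 was left out (1.07), and against microglia (0.72 ± 0.22) unless microglia replicate 3 was left out (1.03). Its copy Pgk1-rs7 holds 67.9% of its 50-base stretches.

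In microglia Pgam1 came to 176, 225, 171 and 147 CPM, and in peritoneal macrophages to 277, 258, 327 and 279.8. The other Pgam1 values were 120.5, 97.1, 111 and 102 CPM in MHC II-high dura, 112, 110.3, 104 and 89.8 in MHC II-low dura and 146, 126, 137 and 144 in choroid plexus. The peritoneal range was the highest, without overlap, and microglia lay above dura and choroid plexus. Pgam1, phosphoglycerate mutase, was called higher in peritoneal macrophages than in MHC II-high dura (1.41 ± 0.12), MHC II-low dura (1.46 ± 0.12) and choroid plexus (1.05 ± 0.12), with edgeR's adjusted p at 1.74e-09 to 1.87e-07, the last not without peritoneal replicate 3 (0.97). Pgam1-ps2 holds 41.5% of its 50-base stretches.

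Enolase levels need caution. Eno1 stood at 7.21, 10.8, 12.1 and 11 CPM in MHC II-high dura and at 7.95, 2.92, 4.45 and 5.29 in MHC II-low dura. For Eno1, the choroid plexus libraries held 2.51, 2.37, 2.37 and 1.33, microglia 2.26, 4.07, 2.32 and 2.71 and peritoneal macrophages 25.6, 37.1, 33 and 24.8. The lowest peritoneal library exceeded every other. Eno1, the general enolase (chr4:150236721-150248879, plus strand), read at most 12.1 CPM in the brain populations. Eno1b holds 70.5% of its 50-base stretches, so its level may be only part of the whole. Between populations, Eno1 was called higher in peritoneal macrophages than in MHC II-high dura (1.55 ± 0.27), MHC II-low dura (2.55 ± 0.28), choroid plexus (3.81 ± 0.31) and microglia (3.41 ± 0.30), with edgeR's adjusted p at 1.5e-09 to 6.7e-05. MHC II-high dura exceeded choroid plexus (2.26 ± 0.29) and microglia (1.85 ± 0.28), and MHC II-low dura exceeded choroid plexus (1.26 ± 0.29, 0.97 without MHC II-low replicate 1). The dura populations differed by 0.996, just under 2-fold, and the call was made without any 1 of 7 libraries. MHC II-low dura against microglia (0.86 ± 0.28) was called without MHC II-low replicate 2 (1.05) or microglia replicate 3 (1.01).

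Eno3 read 5.67, 6.6, 5.13 and 9.28 CPM in MHC II-high dura, 5.15, 9.16, 5.24 and 9.52 in MHC II-low dura and 3.03, 3.43, 2.98 and 3.5 in choroid plexus. Microglia had Eno3 at 14.9, 10, 13.6 and 12.3 CPM and peritoneal macrophages at 3.94, 2.7, 7.45 and 3.73. Eno3, the muscle enolase, was highest in microglia, whose libraries did not overlap with any other. It was called higher there than in choroid plexus (-1.97 ± 0.30 for choroid plexus against microglia) and peritoneal macrophages (-1.51 ± 0.29), with edgeR's adjusted p at 2.18e-05 to 0.00013. Both dura populations exceeded choroid plexus (1.04 ± 0.30 for MHC II-high and 1.17 ± 0.30 for MHC II-low), the MHC II-high call being lost without its replicate 4 (0.84). 3 further Eno3 differences lie just under 2-fold. MHC II-high dura against microglia (-0.93 ± 0.29) passed when replicate 4 of MHC II-high dura, or replicate 3 or 5 of microglia, was left out, MHC II-low dura against microglia (-0.80 ± 0.29) without MHC II-low replicate 4, and peritoneal against MHC II-low dura (-0.70 ± 0.29) without peritoneal replicate 3.

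Eno2, the neuronal enolase, had 0 counts in the 4 peritoneal libraries and 1.42 ± 0.947 CPM in MHC II-high dura, 0.988 ± 0.941 in MHC II-low dura and 3.01 ± 1.79 in choroid plexus. In microglia it was 9.14 CPM in replicate 3 and 0.984 to 1.25 in the others. Set against a floor of 3 counts summed over the peritoneal group, Eno2 was at least 51.4-fold lower there than in MHC II-high dura, 35.8-fold than in MHC II-low dura, 109-fold than in choroid plexus and 113-fold than in microglia, the last falling to 39.8-fold without microglia replicate 3. Eno2 passed the filter on low counts only through some populations, so these bounds are a description with no test. The counts of called members above include Eno2 as lower in peritoneal macrophages than in each of the other 4 populations. Per kilobase Eno3 led in the brain populations and Eno1 in peritoneal macrophages (69.1% ± 9.4, SD), with Eno1 leading in MHC II-high dura by the length of the longest transcript or of the longest coding transcript. These shares carry the uncertainty of the Eno1 reads.

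Pkm, pyruvate kinase, makes the pyruvate. Peritoneal macrophages held Pkm at 1160, 1159, 1259 and 1148 CPM and microglia at 425, 612, 391 and 374. Levels of Pkm were 462, 386, 413 and 427 CPM in choroid plexus, 346, 363, 365 and 382 in MHC II-low dura and 500.2, 393, 398 and 418 in MHC II-high dura. No brain library reached the peritoneal range. For Pkm the peritoneal log2 fold changes were 1.47 ± 0.13 against MHC II-high dura, 1.70 ± 0.13 against MHC II-low dura, 1.49 ± 0.13 against choroid plexus and 1.39 ± 0.13 against microglia, with edgeR's adjusted p at 5.06e-10 to 5.51e-09, and the brain populations were not called apart. Splice forms are not separated in gene counts, so the M1 and M2 forms of the enzyme were not told apart. Other genes hold 34.4% of the 50-base stretches of Pkm.

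The leading subunit of lactate dehydrogenase differed between populations. In microglia Ldha came to 236, 281, 247 and 230.4 CPM, and in peritoneal macrophages to 1425, 1136, 1789 and 1283. The other Ldha values were 332, 236, 282 and 273 CPM in MHC II-high dura, 264, 240.4, 262 and 225 in MHC II-low dura and 299.8, 260.3, 293 and 325 in choroid plexus. Ldha, the subunit that favours lactate formation (chr7:46841475-46855627, plus strand), was higher in each peritoneal library than in any other. For Ldha the peritoneal log2 fold changes were 2.33 ± 0.13 against MHC II-high dura, 2.51 ± 0.13 against MHC II-low dura, 2.26 ± 0.13 against choroid plexus and 2.50 ± 0.13 against microglia, with edgeR's adjusted p at 1.41e-12 to 1.09e-11. The brain populations were not called apart in Ldha.

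Ldhb stood at 8.15, 13, 13.2 and 10.5 CPM in MHC II-high dura and at 15.8, 24.3, 23.7 and 14.4 in MHC II-low dura. For Ldhb, the choroid plexus libraries held 113, 76, 80.4 and 75.6, microglia 465, 624, 464 and 441 and peritoneal macrophages 21.2, 19.1, 25.6 and 16.6. Ldhb, the subunit that favours lactate use (chr6:142490249-142507957, minus strand), was highest in microglia and next in choroid plexus, with no overlap between either of them and the rest. It was called lower than in microglia in MHC II-high dura (-5.48 ± 0.23), MHC II-low dura (-4.67 ± 0.22), choroid plexus (-2.53 ± 0.20) and peritoneal macrophages (-4.59 ± 0.22), with edgeR's adjusted p at 1.63e-13 to 3.59e-09. Choroid plexus exceeded MHC II-high dura (-2.95 ± 0.21 for dura against choroid plexus), MHC II-low dura (-2.14 ± 0.20) and peritoneal macrophages (-2.06 ± 0.20). Peritoneal against MHC II-high dura (0.88 ± 0.20) passed 2-fold without MHC II-high replicate 3 or peritoneal replicate 4 (1.00). The choroid plexus epithelium list was also high in choroid plexus libraries, most in replicate 1 (7590 CPM), which had the highest Ldhb of the 4, and in microglia replicate 3. In the other microglia libraries, with 68.3 to 721 CPM of that list, Ldhb was 441 to 465 CPM, and the part of the epithelium in the choroid plexus level was not tested. Gm5514 holds 27% of the 50-base stretches of Ldhb.

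Per kilobase, Ldha made up 97% ± 0.322 (SD) of the pair in peritoneal macrophages, 92% ± 2.34 in MHC II-high dura, 85.8% ± 3.11 in MHC II-low dura and 62% ± 4.71 in choroid plexus, and 19.3% ± 1.14 in microglia. The promoters of the pair follow because the genes encode partner subunits with opposite leading populations. They run over the same 300-base window of RefSeq on GRCm38.p6, at chr7:46845554-46845853, plus strand for the upstream of 2 listed starts of Ldha and at chr6:142507908-142508207, minus strand for Ldhb, with capitals again marking ACGTG or GCGTG on either strand.
Ldha: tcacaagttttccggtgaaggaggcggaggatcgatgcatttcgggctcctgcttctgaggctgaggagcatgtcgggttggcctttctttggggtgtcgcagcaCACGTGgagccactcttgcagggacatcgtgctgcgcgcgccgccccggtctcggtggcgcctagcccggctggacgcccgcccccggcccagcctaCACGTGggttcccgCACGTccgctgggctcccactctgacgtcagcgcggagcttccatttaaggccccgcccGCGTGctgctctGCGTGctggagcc
Ldhb: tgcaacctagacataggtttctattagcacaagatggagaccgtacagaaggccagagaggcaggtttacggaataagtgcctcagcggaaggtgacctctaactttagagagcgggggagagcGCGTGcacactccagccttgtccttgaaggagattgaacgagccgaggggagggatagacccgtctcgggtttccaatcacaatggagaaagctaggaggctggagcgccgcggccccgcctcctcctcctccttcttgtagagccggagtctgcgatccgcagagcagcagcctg
Ldha has 7 matches in this window, of which 2 CACGTG palindromes count on both strands, and Ldhb has 1. The window of the downstream Ldha start, not shown, has 2. Among the 35 members, 34 were found by symbol in the promoter table, with 48 starts, and Slc2a3 was not. The core was present in 37 of the 48 (77.1%), beside 43.8% of the 32851 promoters of the table. The motif holds a CG pair and the members' promoters had a median GC content of 60.8% against 52.7%, for which the shares were not adjusted. CACGTG, which overlaps the core, was in 5 of the 48 (10.4%) beside 7.2% of all.

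Monocarboxylate transporters carry lactate and pyruvate across the membrane. Slc16a1 read 18.8, 23.1, 24.5 and 32.6 CPM in MHC II-high dura, 26.5, 21.7, 27.4 and 21 in MHC II-low dura and 11.2, 12.8, 13.1 and 8.39 in choroid plexus. Microglia had Slc16a1 at 51.3, 47.9, 46.8 and 48.6 CPM and peritoneal macrophages at 25.8, 27, 27.4 and 24.6. Slc16a1 (MCT1) was highest in microglia and lowest in choroid plexus, with no overlap. Choroid plexus was called lower than microglia (-2.10 ± 0.16), and MHC II-high dura (1.12 ± 0.16), MHC II-low dura (1.09 ± 0.16) and peritoneal macrophages (1.21 ± 0.16) were called above choroid plexus, with edgeR's adjusted p at 1.37e-09 to 4.51e-05. Without choroid plexus replicate 4 the dura calls fell under 2-fold (0.99 for MHC II-high and 0.96 for MHC II-low), and the MHC II-high one also without its replicate 4 (0.95). MHC II-low dura was called below microglia (-1.01 ± 0.15), not without its replicate 2 (-0.96), and MHC II-high dura missed 2-fold (-0.98 ± 0.15) but passed it without any 1 of 10 libraries.

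Peritoneal macrophages held Slc16a3 at 98.5, 121, 140.2 and 179.8 CPM and microglia at 83.6, 68.8, 87.2 and 82.7. Levels of Slc16a3 were 16, 14.6, 19.9 and 13.2 CPM in choroid plexus, 5.19, 12.7, 9.38 and 14.1 in MHC II-low dura and 19.9, 16.1, 10.7 and 16.1 in MHC II-high dura. Slc16a3 (MCT4), the lactate exporter of glycolytic cells, was high in peritoneal macrophages and microglia, which did not overlap with the other 3 populations. Peritoneal log2 fold changes of Slc16a3 were 3.10 ± 0.26 against MHC II-high dura, 3.71 ± 0.27 against MHC II-low dura and 3.08 ± 0.26 against choroid plexus. MHC II-high dura (-2.36 ± 0.25), MHC II-low dura (-2.96 ± 0.26) and choroid plexus (-2.34 ± 0.26) were lower than microglia, with edgeR's adjusted p at 6.53e-10 to 4.58e-07 over the 6 comparisons. Per kilobase Slc16a3 led in peritoneal macrophages (80.5% ± 4.13, SD), and microglia (57.9% ± 2.64) and choroid plexus (53.9% ± 3.61) held the pair nearer to balance. With the whole family counted, Slc16a8 leads in choroid plexus. Slc16a1 led in MHC II-high (65.2% ± 9.07) and MHC II-low dura (73.8% ± 10).

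Pyruvate dehydrogenase kinases act inside mitochondria and block the conversion of pyruvate to acetyl-CoA. In microglia Pdk1 came to 136, 123, 114 and 122 CPM, and in peritoneal macrophages to 129.5, 99.4, 108 and 88.3. The other Pdk1 values were 29.1, 34.4, 35.9 and 35.7 CPM in MHC II-high dura, 44.7, 52.8, 56.2 and 53.7 in MHC II-low dura and 23.1, 21.6, 14.4 and 21 in choroid plexus. Microglia and peritoneal macrophages lay above the other 3 populations. Pdk1 was called lower than in microglia in MHC II-high dura (-1.87 ± 0.14), MHC II-low dura (-1.25 ± 0.13) and choroid plexus (-2.62 ± 0.14). Peritoneal macrophages were called above MHC II-high dura (1.66 ± 0.14), choroid plexus (2.41 ± 0.14) and MHC II-low dura (1.04 ± 0.13), and MHC II-low dura above choroid plexus (1.37 ± 0.14), with edgeR's adjusted p at 7.22e-12 to 1.37e-06 over the 7. The peritoneal call over MHC II-low dura was lost without MHC II-low replicate 1 (0.97) or peritoneal replicate 1 (0.93). Pdk3 was at 17.6 to 42.1 CPM over all libraries and was called in no comparison. Per kilobase Pdk1 held 63.7% ± 3.95 (SD) of the pair in microglia and 51% ± 0.904 in peritoneal macrophages, and Pdk3 led in MHC II-high dura (69.8% ± 3.59), MHC II-low dura (55.3% ± 6.2) and choroid plexus (80.6% ± 2.83). With the whole family counted, Pdk2 leads in MHC II-low dura and choroid plexus.

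Khk, ketohexokinase, phosphorylates fructose. Khk stood at 19.6, 18.4, 18.8 and 16.2 CPM in MHC II-high dura and at 22.2, 24.1, 28.4 and 21.3 in MHC II-low dura. For Khk, the choroid plexus libraries held 21.1, 22.8, 20.7 and 23.8, microglia 47, 42, 45.6 and 43.4 and peritoneal macrophages 148, 104, 114 and 108. Peritoneal macrophages came first and microglia second, with no overlap with the rest. For Khk the peritoneal log2 fold changes were 2.70 ± 0.12 against MHC II-high dura, 2.30 ± 0.12 against MHC II-low dura, 2.42 ± 0.12 against choroid plexus and 1.41 ± 0.11 against microglia, with edgeR's adjusted p at 1.83e-13 to 9.69e-10. MHC II-high dura (-1.28 ± 0.12) and choroid plexus (-1.01 ± 0.12) were called lower than microglia. The fructose transporter Slc2a5 and Khk thus had different leading populations: Slc2a5 was at 921 ± 109 CPM in microglia and 1.89 ± 0.695 in peritoneal macrophages, Khk at 44.5 ± 2.2 and 118 ± 20.4.

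Fbp1, fructose bisphosphatase of gluconeogenesis, had few reads in all populations. It reached 0.943 ± 0.466 CPM in MHC II-low dura, 0.492 ± 0.721 in MHC II-high dura, 0.255 ± 0.0415 in choroid plexus and 0.0462 ± 0.0335 in peritoneal macrophages, with 0 counts in microglia. Against a floor of 3 counts summed over the microglia group, these levels are at least 20.3-fold higher in MHC II-low dura, 10.6-fold in MHC II-high dura and 5.48-fold in choroid plexus. Fbp1 passed the filter on low counts through the populations where it was highest, so these values are a description and no test of them is given. The counts of called members above include Fbp1 as higher than in microglia in both dura populations and choroid plexus, and as lower in peritoneal macrophages than in both dura populations.

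Of the 4 pentose phosphate enzymes, G6pdx and Taldo1 were called higher in peritoneal macrophages in at least 1 comparison. The 4 genes summed to 1178 to 1384 CPM in peritoneal libraries, 668 to 743 in choroid plexus, 594 to 736 in MHC II-high dura, 528 to 614 in MHC II-low dura and 518 to 556 in microglia. G6pdx read 177, 154, 149.5 and 108 CPM in MHC II-high dura, 135, 140.3, 137 and 137 in MHC II-low dura and 123, 129, 135 and 129 in choroid plexus. Microglia had G6pdx at 86.5, 69.6, 77.5 and 80.02 CPM and peritoneal macrophages at 279.6, 270, 240.2 and 306. G6pdx, glucose 6-phosphate dehydrogenase, opens the pathway, and its peritoneal libraries lay above and microglia below all others. It was called higher in peritoneal macrophages than in microglia (1.80 ± 0.12) and choroid plexus (1.09 ± 0.11), with edgeR's adjusted p at 2.8e-11 to 7.53e-08. Against MHC II-low dura (0.997) it lies just under 2-fold and was called without any 1 of 13 libraries (1.004 to 1.055). Against MHC II-high dura (0.90 ± 0.11) it was called without MHC II-high replicate 1 (1.02), and MHC II-high dura against microglia (0.91 ± 0.11) without MHC II-high replicate 4 (1.03).

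Peritoneal macrophages held Taldo1 at 451, 461, 556 and 519 CPM and microglia at 164, 143, 169 and 174. Levels of Taldo1 were 185, 173, 199 and 214 CPM in choroid plexus, 156, 182, 185 and 138 in MHC II-low dura and 196, 168, 187 and 163 in MHC II-high dura. All 4 peritoneal libraries exceeded the other 16. Taldo1, transaldolase, was higher in peritoneal macrophages than in MHC II-high dura (1.48 ± 0.11), MHC II-low dura (1.59 ± 0.11), choroid plexus (1.37 ± 0.11) and microglia (1.61 ± 0.11), with edgeR's adjusted p at 6.49e-11 to 1.32e-09, and was not called between brain populations. Pgd, phosphogluconate dehydrogenase, had 252 ± 24.2 CPM in peritoneal macrophages and 139 ± 13.7 to 181 ± 6.74 in the brain populations. Tkt, transketolase, had 257 ± 28 CPM in peritoneal macrophages and 132 ± 7.02 to 199.8 ± 13.2 in the brain populations. Neither reached 2-fold in any comparison with all libraries in the fit, and Tkt passed it in peritoneal against MHC II-low dura (0.96 ± 0.09) without MHC II-low replicate 4 or peritoneal replicate 1 (1.001 to 1.009).

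Across the 9 steps with more than 1 member gene, the same isozyme led in all 5 populations at 3, namely hexokinase (Hk3), phosphofructokinase (Pfkl) and aldolase (Aldoa). In microglia the leading gene was another than in MHC II-high dura at 5 of the steps: Slc2a5 for Slc2a1, Pfkfb3 for Pfkfb4, Ldhb for Ldha, Slc16a3 for Slc16a1 and Pdk1 for Pdk3. In peritoneal macrophages it was another than in MHC II-high dura at 4: Slc2a6 for Slc2a1, Eno1 for Eno3, Slc16a3 for Slc16a1 and Pdk1 for Pdk3. These counts depend on the length used for a gene. With the longest coding transcript in place of all exons, the same isozyme led throughout at 2 steps, and the leader was another than in MHC II-high dura at 6 steps in microglia and 3 in peritoneal macrophages, since Slc2a6 and Eno1 then led in MHC II-high dura and Hk1 in peritoneal macrophages. With the longest transcript the counts were 2, 6 and 4. Leaving out microglia replicate 3 changed none of the leading genes in microglia, while Pfkp went from 14.5% of its step in that library to 1.15% ± 0.457 (SD, n = 3) in the others and Eno2 from 23% to 2.75% ± 0.233.

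**Figure D4:**
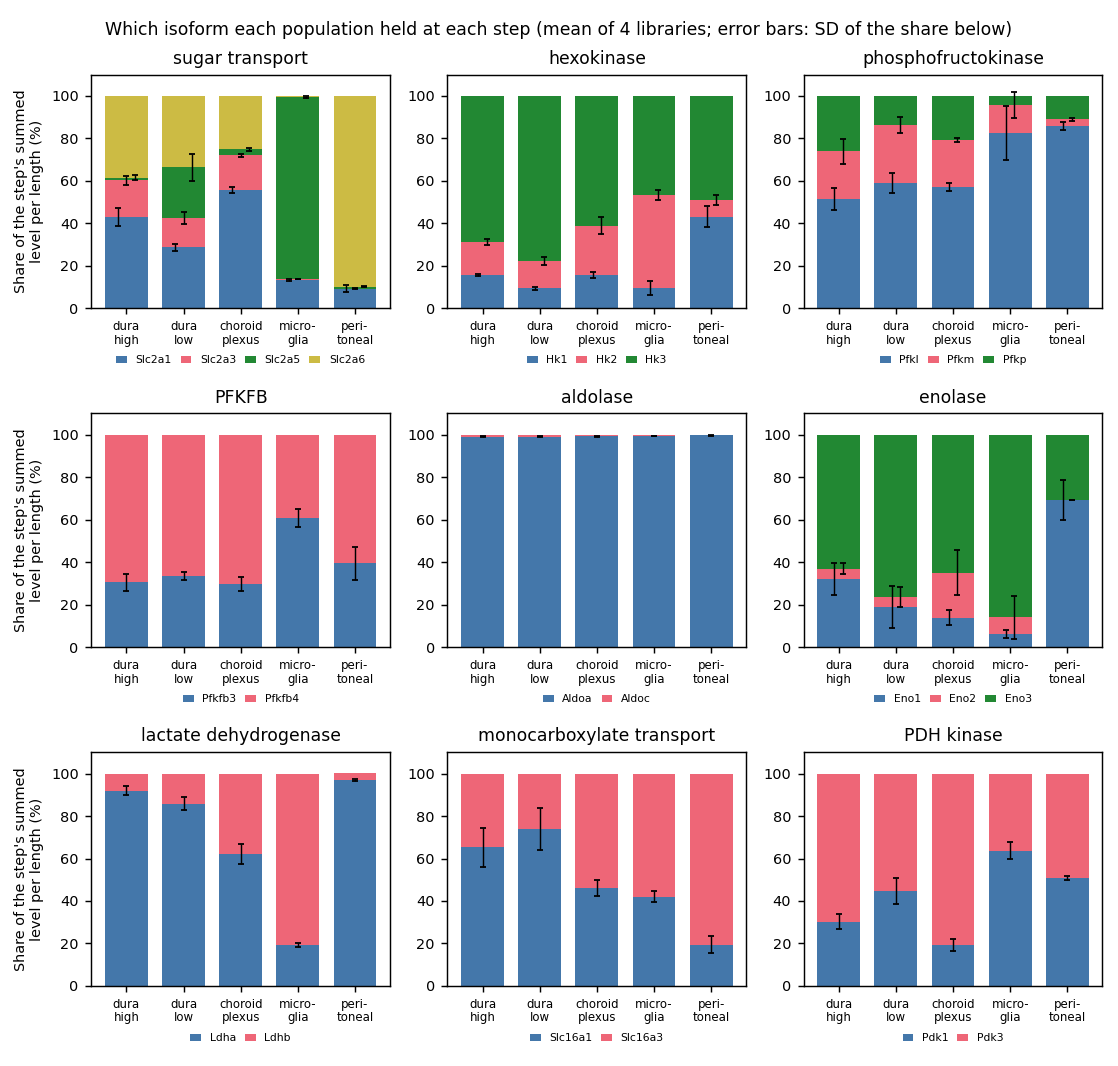
Share of each step's summed level per kilobase (y axis, %) held by each member gene in the 5 populations (x axis); bars are means of 4 libraries and error bars the SD of the share that ends there. Slc2a5 fills 85.9% of sugar transport in microglia and Slc2a6 89.8% in peritoneal macrophages, and Ldhb fills 80.7% of lactate dehydrogenase in microglia.

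**Figure D5:**
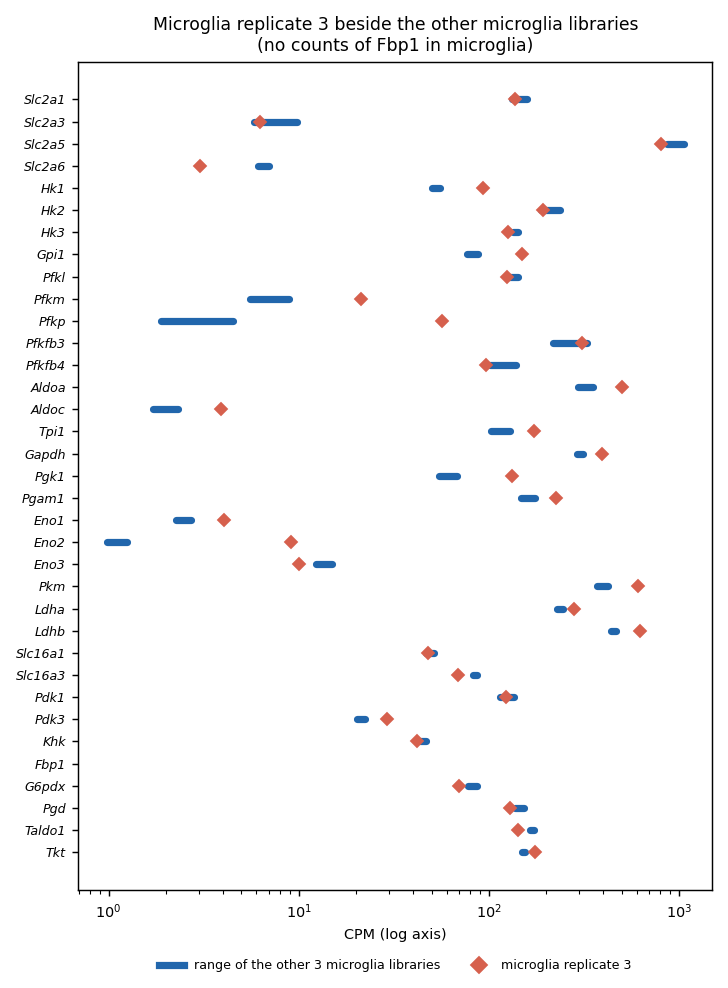
CPM (log axis) of the members in microglia replicate 3 (diamonds) and the range of the other 3 microglia libraries (bars), genes in pathway order. The diamond lies above the bar for 17 members, below it for 11 and within it for 7, counting Fbp1 with no reads, and Pfkp is 16.4 times the mean of the others.

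Microglia replicate 3 was higher than the other 3 microglia libraries in 17 members, lower in 11 and within their range in 7. The largest ratios to the mean of the others were 16.4 for Pfkp, 8.32 for Eno2, 2.77 for Pfkm and 2.08 for Pgk1. The transporters Slc2a1 (138 CPM, others 133 to 159) and Slc2a3 were within range, and Slc2a6 was at 3.02 CPM, below 6.08 to 7 in the others. The part of the epithelial RNA in these members was not tested.

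Of 56 other genes of sugar use outside the 35, 46 were tested, and in peritoneal macrophages 6 were called higher (13%, all genes 9.18%) and 4 lower (8.7%, all genes 20.1%) than in MHC II-high dura. Against MHC II-low dura 6 were higher (13%, all genes 11.9%) and 4 lower (8.7%, all genes 20%). Against choroid plexus 8 were higher (17.4%, all genes 12.6%) and 6 lower (13%, all genes 24.1%), and against microglia 8 were higher (17.4%, all genes 18.9%) and 9 lower (19.6%, all genes 25.7%). The shares called higher lie near those of all genes and the shares called lower under them. The list holds Slc2a12 and Slc16a8, which had 0 counts in peritoneal macrophages and followed the choroid plexus epithelium list, as given below. The lower counts may include them. The glycogen phosphorylases Pygl and Pygb differed in direction. Pygl, liver-type glycogen phosphorylase, was at 1071, 1038, 1016 and 1122 CPM in peritoneal libraries and at 21.6 ± 1.37 in MHC II-high dura, 23.2 ± 2.21 in MHC II-low dura, 7.04 ± 1.99 in choroid plexus and 19 ± 2.37 in microglia. Its peritoneal log2 fold changes were 5.62 ± 0.16, 5.51 ± 0.16, 7.24 ± 0.17 and 5.81 ± 0.16 against these, with edgeR's adjusted p at 1.53e-17 to 2.26e-16. Pygb, the brain-type enzyme, named here after its values were seen, was at 52 ± 11.5 CPM in peritoneal macrophages and was called lower there than in MHC II-high dura (-1.37 ± 0.13), MHC II-low dura (-1.28 ± 0.13) and choroid plexus (-1.49 ± 0.13). Gbe1, the glycogen branching enzyme, was at 234 ± 13.2 CPM in peritoneal macrophages and was called higher there than in MHC II-high dura (3.30 ± 0.15), MHC II-low dura (3.12 ± 0.15), choroid plexus (3.14 ± 0.15) and microglia (3.28 ± 0.15). Ugp2, which makes UDP-glucose, was called higher by 1.26 ± 0.09, 1.45 ± 0.09, 1.45 ± 0.09 and 2.01 ± 0.09 in the same comparisons. Slc37a2, a sugar phosphate exchanger, went the other way: 2.04, 3.1, 1.83 and 5.44 CPM in peritoneal libraries against means of 118 ± 10.8 to 193 ± 8.73 in the brain populations. In microglia Gpd1, glycerol 3-phosphate dehydrogenase of the cytosol, was at 21.5 ± 2.89 CPM and called above MHC II-high dura (-3.47 ± 0.36 for dura against microglia), MHC II-low dura (-3.36 ± 0.36) and choroid plexus (-3.15 ± 0.36), while its mitochondrial partner Gpd2 was called below them (2.24 ± 0.14, 1.68 ± 0.14 and 2.11 ± 0.14), with edgeR's adjusted p at 6.19e-11 to 4.55e-09 for Gpd2.

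Among 19 regulators of sugar use, Mlxipl (ChREBP), the carbohydrate-responsive transcription factor, was high in the same 2 populations as Slc16a3, Pdk1 and Khk. It was at 94.3, 86.2, 90.9 and 94.1 CPM in microglia and 110.5, 150.2, 137 and 163 in peritoneal libraries, against 1.13 ± 0.397 in MHC II-high dura, 3.57 ± 0.749 in MHC II-low dura and 1.22 ± 0.516 in choroid plexus. Log2 fold changes of Mlxipl were -6.36 ± 0.26 for MHC II-high dura, -4.67 ± 0.23 for MHC II-low dura and -6.21 ± 0.26 for choroid plexus against microglia, with edgeR's adjusted p at 6.11e-14 to 1.08e-12, and 6.97 ± 0.26, 5.29 ± 0.23 and 6.83 ± 0.27 for peritoneal macrophages against the same 3. Myc, a growth regulator with many glycolytic targets, was at 172 ± 17.4 CPM in microglia and 126 ± 25.6 in peritoneal macrophages against 30.4 ± 4.49 to 58 ± 12.2 elsewhere, and called below microglia in MHC II-high dura (-2.03 ± 0.17), MHC II-low dura (-2.50 ± 0.17) and choroid plexus (-1.56 ± 0.17). Egln3, an oxygen-dependent prolyl hydroxylase, was at 23.1 ± 4.09 CPM in peritoneal macrophages and reached 1.4 ± 0.276 in microglia, its next highest population, and it was called higher in peritoneal macrophages than in each other population (5.15, 5.94, 5.54 and 4.04). Arrdc4, a glucose-responsive arrestin, was lower in peritoneal macrophages than in MHC II-high dura (-2.25 ± 0.13), MHC II-low dura (-2.50 ± 0.13) and choroid plexus (-2.18 ± 0.13).

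HIF targets outside sugar use were called in both directions in peritoneal macrophages. Of 16 tested, 4 were higher (25%, all genes 9.18%) and 5 lower (31.2%, all genes 20.1%) than in MHC II-high dura, with a median log2 fold change of -0.395 (all genes -0.097). Against MHC II-low dura 4 were higher (25%, all genes 11.9%) and 5 lower (31.2%, all genes 20%), with a median of -0.627 (all genes -0.111). Against choroid plexus 3 were higher (18.8%, all genes 12.6%) and 7 lower (43.8%, all genes 24.1%), with a median of -0.83 (all genes -0.126). Against microglia 2 were higher (12.5%, all genes 18.9%) and 7 lower (43.8%, all genes 25.7%), with a median of -0.956 (all genes -0.108). The list holds Car12, which had 0 counts in MHC II-high dura and followed the choroid plexus epithelium list in choroid plexus and microglia, as given below. These counts may include it. P4ha2, a collagen prolyl hydroxylase, was higher at 62.2 ± 15 CPM (4.22 ± 0.41 against MHC II-high dura and 4.67 ± 0.43 against microglia), and so was the mitophagy receptor Bnip3l against MHC II-high dura (1.08 ± 0.10). Ndrg1 (-2.97 ± 0.41 against MHC II-high dura) and P4ha1 (-1.56 ± 0.12 against microglia) were lower. Hif1a itself, named here after its values were seen, was at 180 ± 10.3, 152 ± 5.69, 139 ± 13.7, 231 ± 26.1 and 176 ± 21.3 CPM, from MHC II-high over MHC II-low dura and choroid plexus to microglia and then peritoneal macrophages.

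A few further family genes followed the epithelial list. Slc2a12 was at 43.1, 25.4, 20.9 and 17.6 CPM in choroid plexus and 0.439, 66.9, 4.98 and 2.38 in microglia, Slc16a8 at 22.3, 13.2, 13.5 and 9.91 and 0.313, 38.6, 2.32 and 1.26, and the carbonic anhydrase Car12 at 64.1, 47.7, 50.4 and 29.6 and 0.627, 153, 6.25 and 3.44. In each, microglia replicate 3 was above all choroid plexus libraries and the other microglia libraries were far below them, as for the epithelial markers. The part of the epithelium in these levels was not tested.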

How the data were processed

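RNA of 5 macrophage populations, 4 libraries each, was given by the authors as read counts per gene symbol, 1 deposited table per library. The submitters' processing notes name FastQC 0.11.4, Trimmomatic 0.38, TopHat2 2.1.0, SAMtools 0.1.18 and mm10. The counting tool, its strand setting and its treatment of reads with several alignments are not stated there, in the labels or in the files, so overlapping and antisense genes cannot be told apart. Reads in no gene (5.67 to 13.1% of the tallied reads) and ambiguous reads (0.836 to 1.51%) were left out. Library totals were 13383274 to 32611875 gene counts.

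A single model over the 20 libraries was fitted with edgeR 4.0.16 (R 4.3.3, limma 3.58.1) with TMM factors, its default filter on low counts and the robust quasi-likelihood F test, which left 13960 of 24421 genes and 15 residual degrees of freedom. All 35 members passed that filter, several with few or no reads in a population (Fbp1, Eno2, Slc2a3, Slc2a5) only through other populations. Adjusted p is Benjamini-Hochberg over all genes tested, and the 10 pairwise comparisons share libraries. Standard errors were derived from the log2 fold change and its F value. Levels per kilobase used the union of exons in GENCODE M21 (mm10), where 23376 of the symbols were found. Shares of a step are percentages of its summed level per kilobase and carry no test. The code was tested on simulated data. Replicates of a population differed by more than counting noise, with at least 10.1 in chi-square per gene.

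The members and all lists were chosen with earlier results of these data known. Members called in at least 1 comparison and reaching 10 CPM in a population are given library by library, and the others by range or mean. From other lists, up to 4 genes per comparison with the largest called changes at 10 CPM or more were named. Alternatives were DESeq2 1.42.0, RLE factors, 2 other filters, fits of 2 populations, no fold limit, a block for replicate number, other gene lengths and each library left out. Alveolar macrophages and Kupffer cells were not analysed here.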

Additional observations from a re-analysis of the deposited data

Results flagged for a closer look

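In 15 of 175 sets of 4 libraries, the highest or lowest library lay apart from the other 3 by Dixon's criterion for 4 values, and chance marks about 1 in 20 such sets. Of these, 5 were microglia replicate 3, the library with 20500 CPM of choroid plexus epithelium genes. It was highest for Hk1 (93.77 CPM), Gpi1 (149.7), Pfkp (56.98), Eno2 (9.136) and Ldhb (623.7). Choroid plexus replicate 1, which had the most epithelial RNA of its population (7590 CPM), was highest for Slc2a3 (30.59 CPM), Pfkm (16.63), Ldhb (112.8) and Pdk3 (30.74). Whether epithelial RNA has a part in these levels was not tested.

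The other libraries that stood apart were spread over genes and populations. Slc2a3 was highest in peritoneal replicate 1 (0.8638 CPM), Gpi1 in MHC II-low dura replicate 2 (186.5), Aldoc in MHC II-low dura replicate 4 (3.772), Gapdh in MHC II-high dura replicate 1 (276) and Pkm in peritoneal replicate 3 (1259). Eno1 was lowest in choroid plexus replicate 4 (1.334 CPM).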

How the results depend on the processing

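No member reversed its direction of a called difference under any alternative that was run. The share of all genes called was taken with no fold limit, but not for the other alternatives. Their counts of members, also with a library left out or with a block, therefore have no background beside them. With no fold limit, members higher and lower were 5 and 5 between the dura populations, 7 lower in MHC II-high dura and 10 lower in MHC II-low dura than in choroid plexus, 8 and 14 in MHC II-high dura and 6 and 16 in MHC II-low dura against microglia, 10 higher in choroid plexus than in microglia, and 22 and 20 higher in peritoneal macrophages than in MHC II-high dura and microglia. Fits of only the 2 populations compared gave 4 lower in MHC II-low dura than in choroid plexus, and 3, 1 and 3 higher in MHC II-high dura, MHC II-low dura and choroid plexus than in microglia. A filter of 10 CPM gave 3 and 1 higher in MHC II-high and MHC II-low dura than in microglia and 3 lower in peritoneal macrophages than in MHC II-high dura. Both settings test fewer samples or genes; beyond that the cause was not tested. With CPM in place of levels per kilobase, 1 step kept the same leading gene in all populations.

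With each library left out in turn, members higher and lower were 0 to 1 and 1 between the dura populations, 1 to 3 and 2 to 3 in MHC II-high dura and 4 to 5 and 2 to 4 in MHC II-low dura against choroid plexus, 3 to 6 and 9 to 11 in MHC II-high dura, 2 to 3 and 8 to 10 in MHC II-low dura and 4 to 5 and 10 in choroid plexus against microglia. For peritoneal macrophages they were 13 to 16 and 4 to 6 against MHC II-high dura, 14 to 17 and 7 to 8 against MHC II-low dura, 13 to 14 and 7 to 8 against choroid plexus, and 12 to 13 and 9 against microglia. Differences among all populations held for 33 to 34 members.

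Deviations of libraries with the same replicate number correlated at -0.146 to 0.12 over 36 pairs. Those with different numbers correlated at -0.194 to 0.232 over 124. Between the dura populations, same-number libraries correlated at 0.0239, 0.0862, 0.0539 and 0.12 for replicates 1 to 4. Different-number libraries of the dura populations correlated at -0.0821 to 0.0795. Whether replicate numbers pair the libraries was not tested. A fit with the replicate number as a block left 345 of 350 member results on their side of the threshold and lost 5 calls: Slc2a5 in MHC II-high dura against choroid plexus (adjusted p = 0.0593) and in peritoneal macrophages against MHC II-high dura (0.0818), Gpi1 in MHC II-high dura against microglia (log2 0.94), Pfkp in choroid plexus against microglia (adjusted p = 0.0882) and Fbp1 in peritoneal macrophages against MHC II-high dura (0.0594). It gave 13 members higher and 5 lower in peritoneal macrophages than in MHC II-high dura. Depth limits genes near the floor, such as Fbp1, Eno2 and Slc2a3 in peritoneal macrophages, and Slc2a5 in MHC II-high dura.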
